A study of Homo sapiens with 18 samples.

Results

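The late washing step, from 7 to 17 additional stringent washing cycles after staining, was measured as the signal of a scan at 17 additional cycles over that of the scan at 7 on the same array in the same series. The 8 scans of this step, of 18 in all, form 4 pairs, and all 54675 probe sets were compared in each pair with no filter. The scans hold RNA from untreated cells of FTC-133, an established human line from a follicular thyroid carcinoma, hybridized from 1 sample to HG-U133 Plus 2.0 arrays. In the first series array A had then received a total of 7 and 17 cycles, and array B, which had 2 stringent cycles before it was stained, 9 and 19. In the second series, after the whole procedure with its 3 rounds of staining was repeated, array A reached totals of 24 and 34 cycles and array B of 28 and 38. Array C, washed for 6 stringent cycles before staining by the standard protocol, enters no test, and its first scan (C1) ranks the probe sets by brightness.

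Stringent washing rinses the array with warm, low-salt buffer. Labelled RNA fragments that match a probe only in part are held weakly and leave it sooner than the transcript for which the probe was designed. A probe set for an abundant transcript carries mostly the latter, and one for a gene the cells do not express carries mostly unrelated fragments. A probe set is a group of short oligonucleotide probes for 1 transcript, and its MAS5 signal combines perfect match and mismatch probes.

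Each scan had been scaled to a trimmed mean of 250.02 to 250.06, so a loss shared by all probe sets is removed from these signals and a rise or fall is relative to the other probe sets of the scan. The pairs are repeated measurements on 2 hybridizations of the same RNA, and p-values here measure technical spread only. The log2 signals of a pair had a Spearman correlation of 0.895 and 0.889 across probe sets in the first series (arrays A and B) and of 0.949 and 0.944 in the second. No pair of scans held identical values. The cell line label could be checked only in part, and the thyroid genes were mixed. On scan C1 the median probe set was at 51.0. The thyroid transcription factors PAX8 and NKX2-1 were measured there at 757 and 766 and HHEX at 176, but FOXE1 at 39.9, below that median. TG (thyroglobulin) and TSHR (the thyrotropin receptor) were also below it, at 40.7 and 38.9.

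Relative to the dim probe sets the bright ones were higher after the late step in the first series, and the gap was small in the second. Among the 300 probe sets brightest on scan C1 the median late change (log2 signal, 17 minus 7 cycles) came to 0.32 for array A and 0.31 for array B in the first series, or 1.25-fold and 1.24-fold. The second series gave 0.042 and 0.024. The study describes a small share of the probes in the second series as reaching the upper limit of the scanner, which truncates their intensities. From similar slopes of its fitted parameters in both series, it treated nonlinearity near that limit as approximately negligible. The signals do not show which probe sets the truncation touches. Its part in the values of the bright probe sets in the second series, and in their difference from the first, was not tested. All 300 of these probe sets were higher at 17 cycles than at 7 on both arrays in the first series, against 218 and 214 of 300 in the second.

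The change was nearly uniform at the top of the brightness range in the first series. In the 300 brightest probe sets its standard deviation came to 0.042 and 0.031 (arrays A and B), and 288 and 295 of the 300 lay within 0.1 of the median. From there the median declined with brightness. It was 0.25 and 0.23 for ranks 301 to 1000, 0.14 and 0.12 for ranks 1001 to 2000 and 0.027 and 0.0050 for ranks 2001 to 5000. For ranks 5001 to 10000 it was below 0 on both arrays, at -0.064 and -0.062, and it levelled off at -0.12 and -0.11 for ranks 10001 to 20000 and -0.12 and -0.12 for the remaining 34675 probe sets. The gap between the 300 brightest and ranks 10001 to 20000, which does not depend on how a scan is scaled by a single factor, was therefore 0.44 and 0.43 in the first series and 0.054 and 0.026 in the second.

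**Figure D1:**
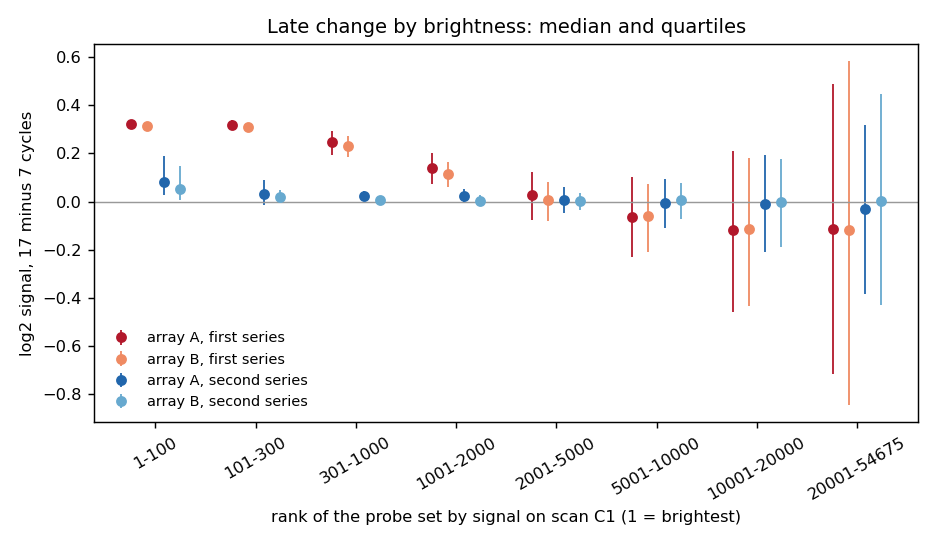
Late change (log2 signal, 17 minus 7 additional cycles) in 8 classes of brightness, ranked on scan C1, with the median as a point and the quartiles as a bar for each array and series. Both arrays of the first series start near 0.32 and 0.31 in the brightest classes and pass below 0 from ranks 5001 to 10000 on, while the second series stays near 0 and the bars widen in the dimmest classes.

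Over deciles of brightness, the highest minus the lowest decile differed by 0.21 and 0.17 (arrays A and B) in the first series and by 0.054 and -0.0025 in the second. The mean was 0.11 ± 0.10 (SD, n = 4 pairs), with p = 0.25 in an exact two-sided sign-flip permutation test whose smallest possible p is 0.125. Quantile normalization, which gives every scan the same distribution, changed the mean to -0.032. The pairs of the 2 series did not overlap in this difference.

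When each scan was anchored instead on the 100 brightest probe sets of C1, as if these lost nothing, the same gap appeared as a loss of the dim probe sets. Probe sets of ranks 10001 to 20000 then kept a median of 73.8% and 74.1% of their 7-cycle signal in the first series, and 90.9% and 98.1% in the second. The anchor is a mean, and in the second series it includes wide movers such as 221798_x_at (-1.43 and -4.30). The median of the 100 was then at 96.9% and 101.7%, which limits the values of that series. On the deposited scaling the second-series medians of ranks 10001 to 20000 were -0.012 and -0.0022. The median change of all probe sets over the 4 pairs moved from -0.032 to -0.23 with this anchor. All changes below are on the deposited scaling unless the anchor is named, and a rise there is a rise relative to the rest of the scan.

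Across the 4 pairs together, limma with the pair as a block called 0 probe sets higher and 0 lower (adjusted p under 0.05, Benjamini-Hochberg over all probe sets), which is 0% of those tested. Counted by an unadjusted p below 0.05 there were 1171 higher and 1290 lower. When the series of each array were averaged first, with the array as the unit, 578 were higher and 6 lower, from 2 pairs and 1 residual degree of freedom.

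The first and the second series were then read separately within 1 fit over the same 8 scans, a contrast added after the values had been seen. In the first series 747 probe sets rose in the late step (1.37% of all) and 11 fell (0.0201%), together 1.39%. The risers had a median change of 0.29. Of the 100 brightest probe sets 83 rose, of ranks 101 to 300 173, of ranks 301 to 1000 446 and of ranks 1001 to 2000 42, whereas of the 52675 dimmer probe sets 3 rose. The second series had 11 probe sets that rose (0.0201%) and 1 that fell (0.00183%), all of them among the 300 brightest. These calls rest on the scaling and on the moderation of the variance: on the anchored scale 0 probe sets were called in the first series, with 471 higher and 13057 lower when counted by an unadjusted p below 0.05. After centring on the median 1172 rose and 16 fell, and quantile normalization, a fit without variance trend and robust moderation or one without the pair gave 0 in both directions. Without array A or array B in the first series, 282 or 386 rose and 25 or 30 fell, where the lone pair was assumed to vary like the others.

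The brightest transcripts of these cells illustrate the uniform rise. COX1, a mitochondrially encoded subunit of cytochrome c oxidase and the brightest probe set on C1, was measured in the first series at 25852 then 32464 on array A and 41147 then 50796 on array B at 7 and 17 cycles. Its change of 0.33 and 0.30 was called (limma adjusted p = 0.0015). EEF1A1, the elongation factor that brings aminoacyl-tRNA to the ribosome, was at 25495 then 32609 on array A and 36490.5 then 45471 on array B. It rose by 0.36 and 0.32 (limma adjusted p = 0.0014). TMSB10, an actin-binding thymosin, was at 16548 then 20539.5 on array A and 37425 then 47105 on array B and rose by 0.31 and 0.33 (limma adjusted p = 0.037). In each case the 17-cycle scan was above the 7-cycle scan of its array, although array B stood higher than array A at both. The remaining members of the 5 brightest are assigned to several genes in the annotation and also rose in the first series.

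The same transcripts differed in the second series. TMSB10 was at 18169 then 17018 on array A and 25953 then 28752 on array B at 7 and 17 cycles, with changes of -0.094 and 0.15 that were not called. COX1 was at 12142 then 14953 on array A and 21381 then 25261 on array B at 7 and 17 cycles and rose again, by 0.30 and 0.24 (limma adjusted p = 0.036). EEF1A1 was at 20606 then 20006 on array A and 28122 then 26938 on array B, with changes of -0.043 and -0.062. Its late change was lower in the second than in the first series, by -0.39 ± 0.026 (SE, limma adjusted p = 0.021).

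Genes of protein synthesis and energy metabolism are bright in these cells, and many of them rose in the first series. Of 44 cytosolic ribosomal protein genes with a probe set of their own, 37 rose and 0 fell in the first series, where 2.28% of all 19775 genes rose and 0.0152% fell, together 2.29%. The median C1 signal of this list was 18935. Its share of 84.1% was near that of all probe sets of like brightness, 83% for ranks 1 to 100 and 86.5% for ranks 101 to 300. The median change of the 44 genes came to 0.32 and 0.31 (arrays A and B), beside -0.026 and -0.033 for all genes. Their medians in the second series were 0.046 and 0.015, and 1 of the 44 rose, where 0.0152% of all genes rose and 0.00506% fell.

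Among the brightest ribosomal genes, RPS10 of the small subunit was at 19896 then 25048 on array A and 33652 then 42335 on array B in the first series and rose by 0.33 and 0.33 (limma adjusted p = 0.0014). RPL7 of the large subunit rose by 0.35 and 0.30 (limma adjusted p = 0.012). RPS23, which lies at the decoding centre of the small subunit, rose in both series: its signals in the second were 15911 then 19722 on array A and 24213 then 31823 on array B, a change of 0.31 and 0.39 (limma adjusted p = 0.028) after 0.33 and 0.30 in the first. It is the ribosomal gene that was called in the second series.

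Of 23 translation factors 13 rose in the first series (56.5%, medians 0.26 and 0.27), where 2.28% of all genes rose. Their median C1 signal of 6240 lies in ranks 301 to 1000, of which 63.7% of all probe sets rose. EIF1, which helps the ribosome to select the start codon, rose by 0.20 and 0.33 (limma adjusted p = 0.0090). PABPC1, the cytoplasmic poly(A) binding protein, rose by 0.29 and 0.30 (limma adjusted p = 0.0019). Of 40 genes of oxidative phosphorylation 19 rose (47.5%), with medians of 0.20 and 0.24. Their median C1 signal, 5778, lies in the same class of ranks. ATP5F1A, of the catalytic head of ATP synthase, rose by 0.32 and 0.34 (limma adjusted p = 0.0023) and ATP5MG, of its membrane part, by 0.29 and 0.32 (limma adjusted p = 0.0019). COX7C, a nuclear encoded subunit of cytochrome c oxidase, rose by 0.34 and 0.35 (limma adjusted p = 0.0014). In all 3 the 2 arrays gave changes at most 0.035 apart.

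Of 17 glycolytic genes 8 rose (47.1%, medians 0.30 and 0.27), where 2.28% of all genes rose, and 2 that were not called were lower on both arrays. The median C1 signal of the list, 5696, lies in ranks 301 to 1000, of which 63.7% of all probe sets rose. ENO1, the enolase, was at 19966 then 24529 on array A and 30749.7 then 38250.2 on array B and rose by 0.30 and 0.31 (limma adjusted p = 0.0034). LDHA, which turns pyruvate into lactate, had like changes of 0.30 and 0.28 but did not pass (limma adjusted p = 0.11). Its arrays differed in the second series, at 0.29 and 0.0027, and the spread of that series enters the same fit. The same holds for the brightest GAPDH probe set of the gene list (213453_x_at), with 0.33 and 0.30 in the first series and 0.38 and 0.013 in the second.

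Of 27 proteasome genes 16 rose (59.3%) and of 24 chaperones 13 (54.2%). Of 31 splicing factors and hnRNPs 13 rose (41.9%) and of 32 proliferation genes 6 (18.8%). Of all genes 2.28% rose, and 0 members of these lists fell. The median C1 signals of the proteasome, chaperone and splicing lists (6298, 7389 and 5190) lie in ranks 301 to 1000, of which 63.7% rose. That of the proliferation list lies in ranks 1001 to 2000, of which 4.2% rose, with members from 608 to 22342. PSMB1 rose by 0.26 and 0.30 on arrays A and B and PSMB7, like it a subunit of the catalytic core, by 0.27 and 0.30, and PSMC2, an ATPase of the regulatory particle, rose by 0.29 and 0.31. The heat shock protein HSP90AA1 rose by 0.35 and 0.31 and PPIA, the prolyl isomerase cyclophilin A, by 0.30 and 0.33. The mitochondrial chaperonin HSPD1 had 0.11 and 0.32 and did not pass (limma adjusted p = 0.21). HNRNPA2B1, which binds nascent transcripts, rose by 0.27 and 0.27 and HNRNPH1, of the same family of RNA-binding proteins, by 0.31 and 0.30. SNRPD2, of the core of spliceosomal snRNPs, rose by 0.32 and 0.30. TYMS, the thymidylate synthase, rose by 0.31 and 0.34 and PTTG1, the securin of anaphase, by 0.36 and 0.30. The median of the proliferation list, which has a median C1 signal of 2891 against 18935 for the ribosomal list, was lower, at 0.13 and 0.11.

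**Figure D2:**
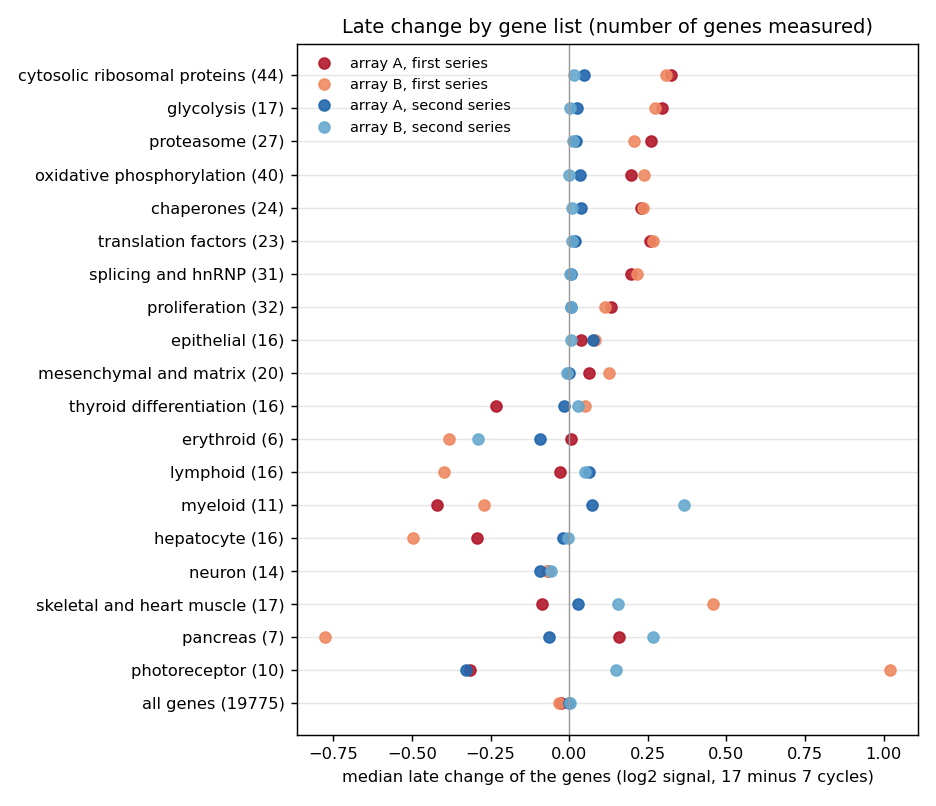
Median late change (log2 signal, 17 minus 7 additional cycles) of the genes of 19 lists and of all 19775 genes, with 1 point for each array and series. The points of the first series lie above those of the second in the 8 lists of abundant transcripts at the top, at 0.32 and 0.31 for ribosomal proteins, and the arrays scatter in both directions in the dim marker lists.

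On the anchored scale the same lists lay near or below 0. The first-series median of the ribosomal proteins was then 0.00033, that of the glycolytic genes -0.029, of the proteasome -0.083, of oxidative phosphorylation -0.10 and of proliferation -0.23, beside -0.36 for all genes. The sign of the last 4 of these medians thus depends on the scaling. RPS23, RPL7 and RPS10 of the ribosomal list, at ranks 6, 9 and 20 on C1, belong to the anchor. So do LDHA and ENO1 of the glycolytic list, at ranks 39 and 78. Anchored medians of these lists near 0 are therefore partly fixed by the choice of anchor. Anchoring and centring keep a list's distance from the median of all genes, and quantile normalization does not: over the 4 pairs the ribosomal list was 0.19 above that median with the deposited scaling and -0.0073 with quantile normalization.

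Markers of cell types other than thyroid epithelium were dim in the median of each list, with single bright members. Of 97 measured markers of erythroid, lymphoid, myeloid, hepatic, neuronal, muscle, pancreatic and photoreceptor cells, 2 rose in the first series and 0 fell, a share near the 2.28% of all genes that rose. These are IL7R, the interleukin 7 receptor, and TUBB3, a neuronal tubulin, and both are bright here (9142 and 8359 on C1). IL7R rose by 0.23 and 0.26 (limma adjusted p = 0.0059) and TUBB3 by 0.16 and 0.26 (limma adjusted p = 0.041). The median changes of the 10 photoreceptor genes, with a median C1 signal of 7.72, were -0.32 and 1.02 (arrays A and B) in the first series. Those of the 7 pancreatic genes were 0.16 and -0.78, and those of the 17 muscle genes -0.086 and 0.46. In these 3 lists the arrays had opposite signs. The 16 hepatocyte genes had -0.29 and -0.50 and the 11 myeloid genes -0.42 and -0.27, below the median of all genes on both arrays, with 0 members called. In bulk RNA, fewer cells of a type and less RNA per cell cannot be told apart, and all scans hold the same RNA.

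Of 16 epithelial genes, with a median C1 signal of 129, 0 were called, where 2.29% of all genes were called in the first series. The brightest, TJP1 and KRT7, were at ranks 884 and 1211 on C1, in classes of which 63.7% and 4.2% rose. TJP1, of tight junctions, had 0.27 and 0.14 in the first series (limma adjusted p = 0.087) and KRT7, a simple epithelial keratin, 0.17 and 0.31 (limma adjusted p = 0.10). Of 20 mesenchymal and matrix genes 1 rose, where 2.28% of all genes rose. This was VIM, the intermediate filament vimentin, at rank 134 on C1, which rose by 0.31 and 0.33 (limma adjusted p = 0.0014). Fibronectin (FN1) had 0.35 and 0.26 in the first series and 0.29 and 0.020 in the second and did not pass (limma adjusted p = 0.081).

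Of 16 thyroid differentiation genes 0 were called in either series, where 2.29% and 0.0202% of all genes were called. The list is dim, with a median C1 signal of 41.1. That signal lies in ranks 20001 to 54675, of which 0.0029% rose and 0.0173% fell in the first series. Its brightest member, NKX2-1, was at rank 5760, and of ranks 5001 to 10000 0% rose and 0.06% fell. PAX8, a transcription factor of the thyroid lineage, was at 1230.5 then 1238 on array A and 876 then 924 on array B at 7 and 17 cycles in the first series and at 1309.8 then 1291 on array A and 863 then 869 on array B in the second. NKX2-1 was at 656 then 620.4 on array A and 885 then 926 on array B in the first series and 629 then 663 on array A and 762 then 847 on array B in the second, changes of -0.080, 0.066, 0.076 and 0.15. The changes of both lay on either side of 0. HHEX, a homeobox factor, differed on array A in the first series, by 0.45, while its other 3 changes were 0.033, 0.074 and 0.050.

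The genes of hormone synthesis and action were dim or of moderate signal. Of the 16 thyroid genes 4 were higher and 5 lower on both arrays in the first series, with sizes that often differed between the arrays. TG was at 58.2 then 44.9 on array A and 84.6 then 78.2 on array B at 7 and 17 cycles in the first series, with changes of -0.38 and -0.11, and at 160.1 then 148 on array A and 40.4 then 12.1 on array B in the second. SLC26A4, the anion exchanger pendrin, had -2.96 and 2.13 in the first series, opposite in sign on the 2 arrays, and DIO1, a deiodinase, had 0.87 and -2.81. IYD, the iodotyrosine deiodinase, was at 2.39 and 26.2 on array B and at 26.2 and 29.6 on array A. FOXE1 had -1.31 and -0.50, TSHR -2.06 and 0.97, the iodide symporter SLC5A5 -0.090 and -0.085, DUOX1 0.21 and -1.89, DUOX2 -2.49 and 0.18, DUOXA2 -0.69 and -0.92, DIO2 2.00 and 0.089, and the hormone receptors THRA -0.92 and -0.046 and THRB -0.86 and 0.10.

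The controls spiked into the hybridization showed the same grading with brightness. They do not come from the cells but are transcripts of the bacterial biotin genes bioB, bioC and bioD and of the phage recombinase cre, added in increasing concentration in this order. The median change of the 6 bioB probe sets, at 620.4 on C1, was -0.056 and -0.045 in the first series. The 4 of bioC, at 1812, had -0.045 and 0.026, the 4 of bioD, at 7147, 0.20 and 0.24, and the 4 of cre, at 18402, 0.31 and 0.30. Of these, 3 of 4 bioD and 4 of 4 cre probe sets rose (adjusted p under 0.05), and 0 of the bioB and bioC probe sets were called. The medians of all 4 in the second series lay between -0.046 and 0.061, and 1 cre probe set (AFFX-r2-P1-cre-3_at) rose, by 0.52 and 0.42.

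**Figure D3:**
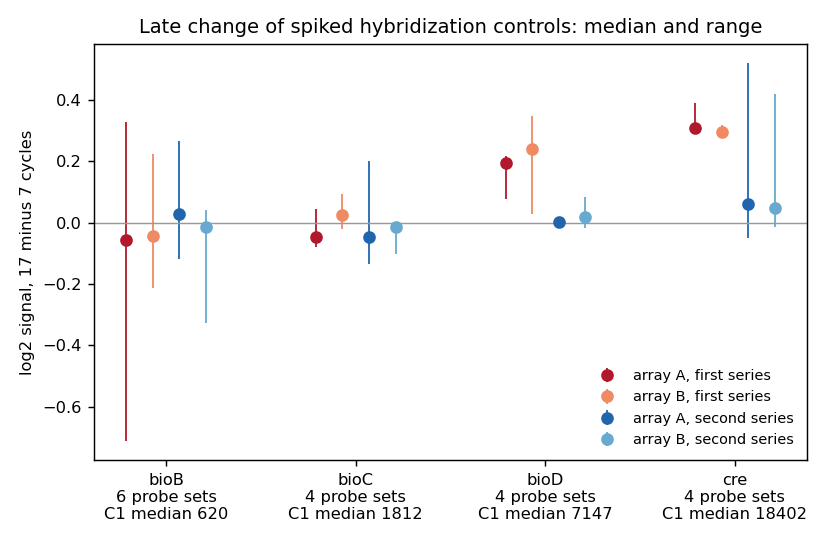
Late change (log2 signal, 17 minus 7 additional cycles) of the probe sets for the 4 spiked hybridization controls, ordered by their signal on scan C1, as median and range for each array and series. In the first series the medians climb from -0.056 and -0.045 for bioB to 0.31 and 0.30 for cre, and in the second they stay near 0, with 1 cre probe set above 0.4 on both arrays.

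The 27 probe sets for the bacterial poly-A controls dap, lys, phe, thr and trp were at 1.70 to 45.8 on C1 and ranged from -2.30 to 2.31 on array A and from -2.73 to 1.05 on array B in the first series, with 0 called. The control probe sets along human ACTB and GAPDH, which are placed at the 3′ end, the middle and the 5′ end of the transcript, rose in the first series at all 3 positions, by 0.28 to 0.34 and 0.30 to 0.33 on array A. The 3 GAPDH positions were apart in the second series: 0.54 and 0.34 at the 3′ end, 0.20 and 0.024 in the middle and 0.043 and -0.13 at the 5′ end, and none of them passed (limma adjusted p = 0.12 for the 3′ end). Control probe sets for 18S and 28S ribosomal RNA, of intermediate or low signal, were not called.

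The direct test of the series against each other found 309 probe sets with a lower late change in the second series (0.565% of all) and 1 with a higher one (0.00183%), together 0.567%. All 310 were among the 897 brightest on C1, with a median rank of 285.5, and 307 of them were also called in the first series. Both contrasts use the first-series scans in the same fit, so this overlap is not independent support. The median difference of the 309 was -0.30. Of genes, 0.915% had a called difference, against 29 of 44 ribosomal protein genes, 8 of 23 translation factors, 10 of 40 of oxidative phosphorylation, 6 of 27 of the proteasome and 4 of 17 glycolytic genes. These lists are bright. Among all probe sets of ranks 1 to 100, 101 to 300 and 301 to 1000, 40%, 63.5% and 20.3% had a called lower change in the second series. Anchoring and quantile normalization each left 1 lower and 1 higher, centring gave 577 lower and 2 higher, and leaving out either pair of the first series gave 0 in both directions.

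**Figure D4:**
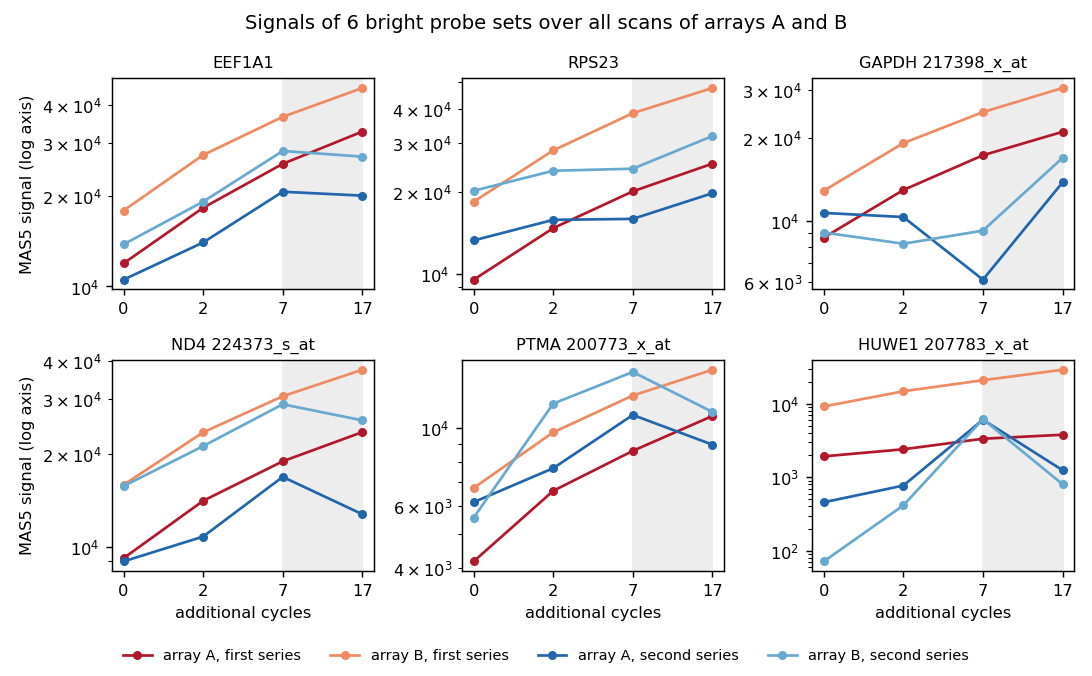
MAS5 signal (log axis, different in each panel) of 6 bright probe sets at 0, 2, 7 and 17 additional cycles, with 1 line for each array and series and the late step shaded. All 6 climb from scan to scan in the first series, while in the second series RPS23 and GAPDH (217398_x_at) climb in the late step, EEF1A1 is nearly level, and ND4, PTMA and HUWE1 (207783_x_at) end below their 7-cycle signal.

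The probe set with the largest called difference was 207783_x_at, assigned to HUWE1, a ubiquitin ligase. Its signals in the first series were 3342 then 3784 on array A and 20919 then 29048 on array B at 7 and 17 cycles, so the arrays differed more than the steps. Those of the second series were 6065 then 1246 on array A and 6184 then 804 on array B. The change of -2.28 and -2.94 there was called (limma adjusted p = 0.016), as was the difference of -2.94 ± 0.21 between the series (SE, limma adjusted p = 0.021), and also on the anchored scale and after quantile normalization (limma adjusted p = 0.027 and 0.0074). Like every other difference between the series it was not called without variance trend and robust moderation, without the pair as a block, or without either pair of the first series. Another probe set of HUWE1 (208598_s_at), at 1305 on C1, had changes of 0.044 and -0.0065 in the first series and 0.14 and 0.013 in the second. The suffix _x_at marks a probe set in which some probes also match other transcripts, so its value cannot be assigned to HUWE1 alone.

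PTMA, the acidic nuclear protein prothymosin alpha, was named by the same rule. Its probe set 200773_x_at was at 8608 then 10823 on array A and 12379.8 then 14663 on array B in the first series and at 10896 then 8967 on array A and 14450.1 then 11115 on array B in the second. It was higher at 17 cycles on both arrays in the first and lower on both in the second, a difference of -0.62 ± 0.049 (SE, limma adjusted p = 0.021). A dimmer PTMA probe set (208549_x_at) had changes of 0.021 and 0.022 in the second series. ND4, a mitochondrially encoded subunit of complex I, differed by -0.58 ± 0.068 (SE, limma adjusted p = 0.025) in probe set 224373_s_at, with 0.31 and 0.28 in the first series and -0.40 and -0.17 in the second. Its other probe set (224372_at), of like brightness, had 0.090 and -0.00073 in the second series. On the anchored scale neither the PTMA nor the ND4 difference passed (limma adjusted p = 0.51 for both).

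The single probe set whose late change was higher in the second series was 217398_x_at of GAPDH, the glycolytic glyceraldehyde-3-phosphate dehydrogenase. It was at 17326 then 21085 on array A and 24883 then 30454 on array B in the first series and at 6101 then 13787 on array A and 9208 then 16941 on array B in the second, which is 2.26-fold and 1.84-fold in the late step. The difference was 0.74 ± 0.087 (SE, limma adjusted p = 0.026), which held on the anchored scale (limma adjusted p = 0.027) and not after quantile normalization (limma adjusted p = 0.22). A second GAPDH probe set (212581_x_at) rose in both series, by 0.33 and 0.31 and then by 0.52 and 0.43, and the difference between its series was not called (limma adjusted p = 0.40).

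A small group of very bright probe sets stood apart in the second series. Of the 300 brightest, 13 were more than 0.25 higher at 17 cycles on both arrays in the second series and 4 more than 0.25 lower, and of ranks 301 to 1000, 0 and 1. In the first series the counts for the 300 brightest were 278 and 0. The group, listed here after its values were seen, holds 1 probe set of ACTB (200801_x_at, 0.34 and 0.29), a pair of the tubulin TUBA1B (211058_x_at, 0.37 and 0.31, and 211072_x_at, 0.29 and 0.38), the actin depolymerizing factor CFL1 (0.51 and 0.34), RPS23 and the GAPDH probe sets already named. Other ACTB probe sets of like brightness had smaller values, 0.14 and 0.070 for 213867_x_at and 0.17 and 0.094 for 224594_x_at. On array B the lowest value came from 221798_x_at, which has no symbol in the annotation, with -1.43 on array A and -4.30 on array B. On array A it came from 207783_x_at of HUWE1, at -2.28. Over the 300 brightest the changes of arrays A and B had a Pearson correlation of 0.56 in the second series and of -0.040 in the first, and a Spearman correlation of 0.30 and 0.044, across probe sets that share their scans.

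Per cycle, the late step had the smallest median change of the 3 washing steps in the brightest probe sets. For the 300 brightest probe sets the median change per cycle in the first series was 0.31 and 0.30 from 0 to 2 cycles, 0.090 and 0.083 from 2 to 7, and 0.032 and 0.031 from 7 to 17. For the second series it was 0.16 and 0.15 from 0 to 2, 0.045 and 0.071 from 2 to 7 and 0.0042 and 0.0024 from 7 to 17. The late step of 10 cycles still contributed as a whole 0.32 and 0.31 in the first series, beside 0.45 and 0.41 for the 5 cycles before it. Probe sets of ranks 10001 to 20000 had -0.034 and -0.029 per cycle from 2 to 7 and -0.012 and -0.011 from 7 to 17. Neighbouring steps share the scan between them.

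**Figure D5:**
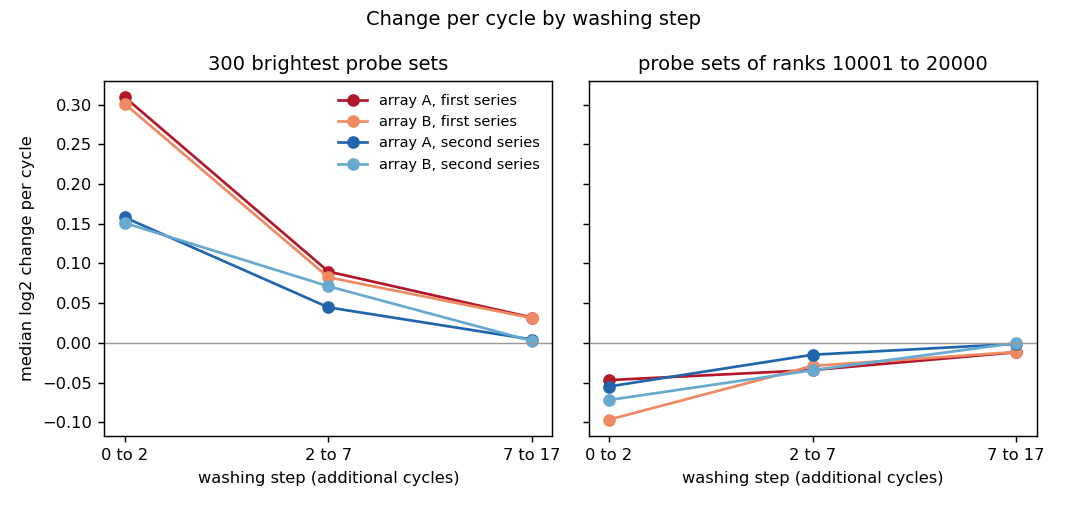
Median change in log2 signal per washing cycle in the 3 steps after staining, for the 300 brightest probe sets (left) and for ranks 10001 to 20000 (right), with 1 line for each array and series. In the brightest probe sets the change per cycle drops from 0.31 and 0.30 to 0.032 and 0.031 in the first series and from 0.16 and 0.15 to 0.0042 and 0.0024 in the second, and in the dimmer ones it comes up towards 0 from below.

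The test of the change per cycle in the late step against that from 2 to 7 cycles, over 12 scans, called 0 probe sets higher and 0 lower (0%, limma adjusted p under 0.05), with 1758 higher and 1273 lower when counted by an unadjusted p below 0.05. The counts were also 0 under every alternative that had been listed for this test. For the second series within a fit of both, a contrast added after the values had been seen, 38 probe sets were lower and 1 higher per cycle in the late step. For the first series in that fit the counts were 0.

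Dim probe sets varied widely in the late step without repeating between arrays. Below the median C1 signal, 33.3% and 39.7% of probe sets were more than 2-fold apart between the scans of a pair in the first series, and 17.0% and 23.7% in the second. In the 1000 brightest the numbers were 0 and 0 in the first series and 6 and 5 in the second. Over all probe sets the first-series changes of arrays A and B had a Pearson correlation of 0.0054 and the second-series changes one of -0.0033. In the brightest decile, of 5468 probe sets, it was 0.40 and 0.24, with Spearman correlations of 0.46 and 0.053, and in the dimmest the Pearson values were -0.013 and -0.011. These describe probe sets of the same scans and are not independent replicates.

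The 11 probe sets that fell in the first series were named after the values had been seen, and 7 of them have 1 symbol. In 4 of the 7 the signal was moderate. WWTR1, the coactivator TAZ of the Hippo pathway, was at 347 then 154 on array A and 392 then 211 on array B at 7 and 17 cycles and fell on both arrays (-1.18 and -0.90, limma adjusted p = 0.031). NFATC2IP was at 1259 then 783 on array A and 1135 then 791 on array B (-0.68 and -0.52, limma adjusted p = 0.020), UBE2E2, a ubiquitin conjugating enzyme, at 845 then 579 on array A and 996 then 571 on array B (-0.55 and -0.80, limma adjusted p = 0.030) and DHPS, the deoxyhypusine synthase, at 465 then 307 on array A and 859.8 then 429.7 on array B (-0.80 as the mean of both arrays, limma adjusted p = 0.046). The other 3 were BAZ2A (-1.70 and -1.25), HCG18 (-3.58 and -2.86) and SNX20 (-4.18 and -4.37), dimmer at 7 cycles and with larger changes. Their changes in the second series lay between -0.53 and 0.42, and the difference between series was called in 0 of them.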

How the data were processed

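The values are the MAS5 signals deposited for 18 scans, on a linear scale with 1 signal per probe set. Per the submitters' processing notes the authors used MAS5, which combines PM and MM intensities into a signal and whose version is not given in the sources used here, and scaled each scan, which was checked with a 2% trimmed mean. PM and MM intensities and detection calls were not analysed here. Signals carry no counts, and 2 arrays limit the precision.

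Signals were taken to log2 with no offset and no filter. Pairs follow the labels: scans of 1 array in 1 series. Models were fitted in R 4.3.3 by limma 3.58.1, reading files with data.table, version 1.17.8, and with variance trend, robust moderation, the pair as a block and Benjamini-Hochberg adjustment over 54675 probe sets. The late change was fitted over 8 scans, the difference between series as an interaction in these, and the change per cycle over 12 scans. The change within each series was added after the values were seen. The annotation gave 41097 probe sets 1 gene symbol, 1801 several and 11777 none, with 62 controls, and 41043 were found in a RefSeq gene table. For the 19775 genes the probe set brightest on C1 was used. Descriptions used Python 3.11.15, numpy 2.4.6, pandas 2.3.3, scipy 1.17.1 and matplotlib 3.10.9.

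The members, gene lists and rules were chosen with earlier results of these data known. Named genes are, among probe sets past the threshold with 1 symbol and a mean above the median, the 10 largest late rises and falls with the same sign in all 4 pairs (there were 0), the 3 largest in each direction for the difference between series and for the change per cycle (0 for the latter), the 3 brightest of each list, all thyroid genes, the 5 brightest probe sets and the controls. Alternatives were centring, quantile normalization, anchoring on the 100 brightest, an offset of 16, probe sets at or above the median of C1, no trend or robust moderation, no block, subsets of pairs, the array as the unit, all 16 scans of arrays A and B, ranking by C2, whole-step change, and averaging the probe sets of a gene. In simulated scans 50 of 54675 probe sets were changed at each size, by 0.5, 1, 2 and 4 on the log2 scale. The late fit found 30%, 52%, 90% and 96% of them, with 18 unchanged probe sets called. The interaction found 12%, 34%, 50% and 88%, with 7. The simulated noise was normal, with a spread set by brightness alone, and there was no late change other than those added. The real scans also shift with brightness and differ between series, so these rates need not hold for them.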

Additional observations from a re-analysis of the deposited data

Results flagged for a closer look

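The late change differed between the series in 309 probe sets that were lower in the second series and 1 that was higher, by the interaction term of the limma fit. Of 86 named probe sets 21 had such a difference. All 21 lost the call without variance trend and robust moderation, with no replicate block and without either pair of the first series. On the anchored scale 17 lost it with the same sign, and 2 more turned their sign and lost it too. Only those of HUWE1 (207783_x_at) and GAPDH (217398_x_at) kept it there. Among the 21 the largest was that of HUWE1 (207783_x_at), at -2.94, and the only positive one that of GAPDH (217398_x_at), at 0.74. PTMA was at -0.62 and ND4 at -0.58. Genes of translation and the ribosome had -0.39 (EEF1A1), -0.31 (RPS10), -0.24 (PABPC1) and -0.22 (213084_x_at, assigned to several genes). Among genes of respiration and glycolysis the values were -0.37 for COX7C, -0.31 for ATP5MG, -0.30 for ATP5F1A and -0.37 for ENO1. Splicing and RNA-binding factors had -0.44 (HNRNPH1), -0.30 (HNRNPA2B1) and -0.26 (SNRPD2). The proteasome subunits had -0.27 (PSMB1) and -0.26 (PSMB7). The rest were VIM at -0.36, TYMS at -0.31, PTTG1 at -0.27 and the 5′ control probe set of ACTB at -0.28.

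In 9 of the 86 named probe sets 1 of the 4 pairs stood apart from the other 3 by more than Dixon's limit for 4 values, which chance alone passes in about 1 of 20 cases. On array B in the second series these were TG at -1.74, LDHA at 0.0027 and ACTC1, a cardiac actin, at 0.012. On array B in the first series they were IYD at 3.46 and CD79A, a B cell receptor component, at -2.21. On array A they were HHEX at 0.45 and THRA at -0.92 in the first series, and SLC5A5 at 1.84 and the 3′ control probe set of GAPDH at 0.54 in the second. The gene lists had 0 such pairs in 19 lists.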

How the results depend on the processing

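Over 4 pairs, the counts of 0 higher and 0 lower held under every alternative except the first series alone (880 higher, 9 lower) and the array as the unit (578 and 6). The difference between series gave 2 higher and 577 lower after centring, 1 and 1 after quantile normalization and after anchoring, 2 and 299 with an offset of 16, 3 and 354 among probe sets at or above the median of C1, and 0 and 0 without variance trend and robust moderation and also with no replicate block. Leaving out 1 pair gave 0 to 7 higher and 0 to 374 lower, with 0 and 0 without either pair of the first series. In the first series, a contrast chosen after seeing the data, centring gave 1172 higher and 16 lower, probe sets at or above the median of C1 817 and 28, and quantile normalization, anchoring, no trend and no replicate block 0 and 0, with 282 to 861 higher and 4 to 30 lower on leaving out 1 pair. In the second series, chosen likewise, quantile normalization gave 8 higher and 3 lower, anchoring 3 and 1, no trend and no replicate block 0 and 0, and leaving out 1 pair 0 to 40 higher and 0 to 19 lower, with 0 and 0 without either pair of the first series. The change per cycle against the middle step stayed at 0 and 0, other than 1 higher and 38 lower for the second series within the fit of both, a contrast added after seeing the data. The pairing is that of the scans of 1 array in 1 series, and without this block 44 higher and 94 lower had an unadjusted p below 0.05 over the 4 pairs. Where a count fell the cause was not tested.

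The decile contrast kept its direction except under quantile normalization (-0.032). Relative to all genes, the medians of the ribosomal and chaperone lists became -0.0073 and -0.0067 with quantile normalization, those of the splicing, proliferation, oxidative phosphorylation and mesenchymal lists also turned below 0 (-0.0087, -0.0068, -0.00093 and -0.0012), that of thyroid genes -0.027 with the offset and -0.24 to 0.041 on leaving out 1 pair, and when the probe sets of a gene were averaged the lymphoid list was at 0.16 and the neuronal list at 0.051. The neuronal list ranged from -0.075 to 0.027 on leaving out 1 pair. Of the named genes, the difference between series of SNRPD2 turned to 0.011 and that of PABPC1 to 0.053 with quantile normalization, PABPC1 to 0.0049 with anchoring, and 213084_x_at to 0.031 and 0.025 with these. The late change of PTMA was 0.29 and that of HUWE1 0.33 in the first series alone, opposite in sign to the 4 pairs together. With 2 arrays, 1 RNA sample and no counts, the number of hybridizations limits the precision.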

Other observations

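The late change was also set side by side for bright and dim probe sets of the same gene, with no test. In 27 genes with a probe set among the 300 brightest and another below the median of C1, the bright one had a median change of 0.30 and 0.30 on arrays A and B in the first series, and the dim one -0.16 and 0.25. The bright probe set had the higher change in 17 and 15 of the 27 genes. In the second series the bright medians were 0.036 and 0.018 and the dim ones -0.011 and -0.14, with the bright one higher in 13 and 16 of 27.

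Probe sets with the suffix _x_at, whose probes can also match other transcripts, made up 146 of the 300 brightest and varied little in the first series (SD 0.040 and 0.031), with a wider spread in the second (SD 0.35 and 0.46). Those with the suffix _at had SDs of 0.045 and 0.030 and then 0.27 and 0.50, and the 93 with the suffix _s_at had 0.044 and 0.032 and then 0.14 and 0.17. The 4 probe sets without a single symbol among those that fell in the first series were 1562473_at (-4.51 and -4.83), 240509_s_at (-4.67 and -4.12), 224216_at (-3.62 and -4.32) and 240829_at (-4.18 and -2.96), at 1.70 to 26.4 on C1.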
